A study of Mus musculus with 7 samples.

Results

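Krt23, Defb1, Tff3 and Cadm4 are 4 genes of epithelial cells, the cells that line surfaces and ducts, and they were followed here in mouse liver after a high-fat diet (HFD). They were taken by name, through the RefSeq accession that the array's scanner files give for each probe, and they are 4 of the 32451 genes on the array, each with 1 probe. They were chosen by their measured values in the deposited table, which differed widely between diets, so their diet values are given as a description and not as a test. The HFD group held 3 livers of male C57/BJ mice given the diet D12331 (ResearchDiets), and the chow group held 4 livers of such males given Provimi Kliba chow. Both diets began at 6 weeks of age and lasted 20 weeks, so every mouse was 26 weeks old. Each liver RNA was labelled with Cy3 and read on 1 Agilent array of 1 colour. The labels do not say which animal a sample came from, so the p-values below measure only the spread between these samples, which may be technical. With 7 arrays in all, precision is limited by their number.

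Epithelial cells are held together by tight junctions and adhesion molecules, are stiffened by keratin filaments, and shield their surfaces with secreted peptides. In liver, hepatocytes carry keratins 8 and 18, and the bile duct cells (cholangiocytes) carry keratins 7 and 19 besides. Keratin 23, the product of Krt23, is a type I keratin that is known from mouse and human liver as a stress-inducible keratin of proliferating ductular cells. Defb1 encodes beta-defensin 1, an antimicrobial peptide that many epithelia release. Tff3 encodes trefoil factor 3, a small secreted peptide best known from goblet cells, where it takes part in mucosal repair. Cadm4 encodes a cell adhesion molecule of the immunoglobulin superfamily, also called nectin-like 4. RNA of a whole liver cannot tell fewer cells of a type from less RNA per cell.

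The promoters of Krt23 and Cadm4, the structural and the adhesive gene, which lay on opposite sides of the diet comparison, are shown first because they differ in composition. Both are from RefSeq on build GRCm38.p6 and run from 250 bases before to 50 bases after the start of the gene, and capitals mark the matches to the motifs searched.
Krt23, chr11:99493071-99493370, minus strand: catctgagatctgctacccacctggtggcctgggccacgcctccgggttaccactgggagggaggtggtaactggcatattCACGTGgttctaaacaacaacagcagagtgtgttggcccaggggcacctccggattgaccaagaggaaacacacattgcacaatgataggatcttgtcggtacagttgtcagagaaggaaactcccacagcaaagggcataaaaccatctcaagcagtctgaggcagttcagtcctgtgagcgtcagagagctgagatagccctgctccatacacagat
Cadm4, chr7:24481773-24482072, plus strand: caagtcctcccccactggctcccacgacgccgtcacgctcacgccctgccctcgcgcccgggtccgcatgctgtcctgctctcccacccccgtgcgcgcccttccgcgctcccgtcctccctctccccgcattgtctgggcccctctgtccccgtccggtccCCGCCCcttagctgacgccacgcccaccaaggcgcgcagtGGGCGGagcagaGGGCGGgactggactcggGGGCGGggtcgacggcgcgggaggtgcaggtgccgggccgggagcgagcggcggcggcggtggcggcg
The Krt23 window had 53% G and C bases and 6 CpG steps, against medians of 52.7% and 7 over 32851 promoters of the same length. The Cadm4 window had 77% G and C bases, above 97.6% of those promoters, and 40 CpG steps, above 96.1% of them. On both strands 8 motifs were searched. TATAAA is held by 13.6% of all promoters, CCAAT by 37.4% and AGGTCA by 16.3%. The direct repeat of AGGTCA with 1 base between, named DR1, contains the single word and is held by 0.0396%. TGACGTCA is held by 1.79% and TGACTCA by 5.20%. None of these was found in either window. Krt23 held CACGTG once, 169 bases before the start, a word that 7.15% of all promoters hold. Cadm4 held GGGCGG, which occurs in 35.7% of all promoters, at 4 places that began 88, 48, 36 and 18 bases before the start. These matches are a description of the letters and not of binding.

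The scanner files labelled chow did not hold the measurements of the chow columns in the authors' table of processed log2 values, which lists 1615 probes of 1488 genes. Over the probes of that table, Pearson's r between a scanner file and its column was at least 0.9999 in HFD and 0.580 to 0.589 for the files labelled chow. Probes are not independent replicates, and r is a description here. Of 15 hepatocyte markers, 15 were well above background on all 3 HFD arrays and 9 on all 4 arrays labelled chow. The summed signal of those markers, each signal divided by its array's 75th percentile, was 4572 to 6750 on HFD arrays and 19.7 to 20.1 in the files labelled chow. The sum of 16 cholangiocyte markers was 6.09 to 15.5 on HFD arrays and 325 to 372 in the files labelled chow. The diet values below therefore come from the authors' table, whose 3 HFD columns are matched by scanner files and whose 4 chow columns are not. All 3 HFD scans share a day, and since the day of the scans behind the chow columns is unknown here, scan day and diet cannot be told apart.

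Krt23 had log2 values of 11.12, 12.33 and 10.90 in HFD replicates 1, 2 and 3, against 7.39, 8.62, 8.26 and 7.72 in chow replicates 1 to 4. The lowest HFD sample lay 2.28 above the highest chow sample. The means were 11.45 ± 0.77 (SD, n = 3) in HFD and 8.0 ± 0.55 (SD, n = 4) in chow, a log2 difference of 3.45 with an SE of 0.42, or 10.95-fold higher in HFD. All 7 values lay above 4.93, the highest detection floor of the HFD arrays. A floor is the lowest table value among probes that the scanner software called well above background on that array. HFD replicate 2 stood 0.88 above its group mean, and the other HFD samples lay below it.

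Defb1 had log2 values of 8.05, 7.19 and 6.68 in HFD replicates 1, 2 and 3, against 3.14, 4.75, 3.76 and 2.85 in chow replicates 1 to 4. All 3 HFD values lay at least 2.96 above the floor of their own array, while all 4 chow values lay below 4.93. The peptide gene was thus well above background in HFD livers, and its chow values fell below the highest of the 3 HFD floors. The floor of the arrays behind the chow columns is not known here. Its means were 7.31 ± 0.69 (SD, n = 3) in HFD and 3.62 ± 0.84 (SD, n = 4) in chow, and the chow mean averages values below the floor. If the HFD floor of 4.93 also held for the chow columns, Defb1 was at least 5.20-fold higher in HFD by its HFD mean. Without HFD replicate 1, 2 or 3 in that mean, this bound was 4.03-fold, 5.41-fold or 6.47-fold. The floor of 4.93 comes from HFD replicate 1. With the floors of HFD replicates 2 and 3, which were 4.16 and 3.72, the bound was 7.99-fold and 9.97-fold, and 3 and 2 of the 4 chow values lay below them.

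Tff3 had log2 values of 7.95, 7.51 and 8.57 in HFD replicates 1, 2 and 3, against 11.72, 10.74, 10.17 and 9.94 in chow replicates 1 to 4. No sample of either group lay below a floor, and the highest HFD value lay 1.37 below the lowest chow value. The trefoil peptide gene averaged 8.01 ± 0.53 (SD, n = 3) in HFD and 10.64 ± 0.79 (SD, n = 4) in chow. The log2 difference was -2.63 with an SE of 0.46, or 6.19-fold lower in HFD. The chow samples spanned 1.79 on the log2 scale, more than the 1.06 of the HFD samples, with chow replicate 1 the highest at 1.08 above its group mean.

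Cadm4 had log2 values of 5.64, 5.93 and 7.18 in HFD replicates 1, 2 and 3, against 9.92, 8.77, 9.18 and 9.69 in chow replicates 1 to 4. The HFD samples did not overlap the chow samples, and HFD replicate 3 came nearest to them, with 1.60 between the groups. The adhesion gene averaged 6.25 ± 0.82 (SD, n = 3) in HFD and 9.39 ± 0.52 (SD, n = 4) in chow. The log2 difference was -3.14 with an SE of 0.43, or 8.84-fold lower in HFD. The lowest HFD value exceeded the floor of its own array by only 0.72 on the log2 scale, so Cadm4 was close to the detection limit in HFD replicate 1.

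**Figure D1:**
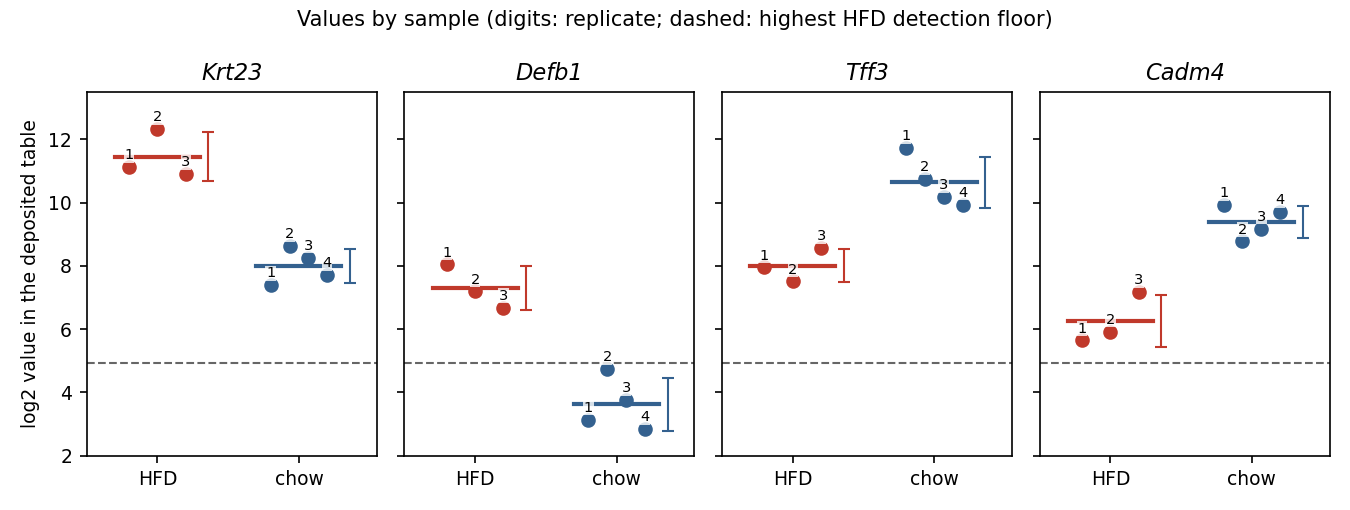
Log2 values of the 4 genes in the deposited table, HFD samples (red, n = 3) left of chow samples (blue, n = 4). Each point is a sample with its replicate number, horizontal bars are means, whiskers are SDs, and the dashed line is the highest HFD floor at 4.93. The 4 chow points of Defb1 are the ones below that line.

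The groups did not overlap for any of the 4 genes, which is the case for 1615 of 1615 probes of the table (100%). The count therefore sets the 4 genes apart from no other listed gene. Among the 801 table genes that were higher in HFD, Defb1 had place 9 and Krt23 place 14 by size of difference. Among the 687 that were lower, Cadm4 had place 5 and Tff3 place 15. In that order Krt23 stood between Slc22a27 (3.50) and Cidec (3.45), Defb1 between Pnpla5 (3.94) and Tinag (3.57), Tff3 between Sebox (-2.64) and Apcs (-2.55), and Cadm4 between Fam222a (-3.24) and Prtn3 (-3.03), all as log2 differences. The median absolute difference of the table was 0.83. The place of Defb1 rests on chow values below the floor, as its bound of 2.38 on the log2 scale is smaller than each of these higher differences. Centring the columns on their medians lowered every difference by 0.21, and quantile normalization lowered the median gene by 0.14, and the 4 genes kept their directions under both.

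**Figure D2:**
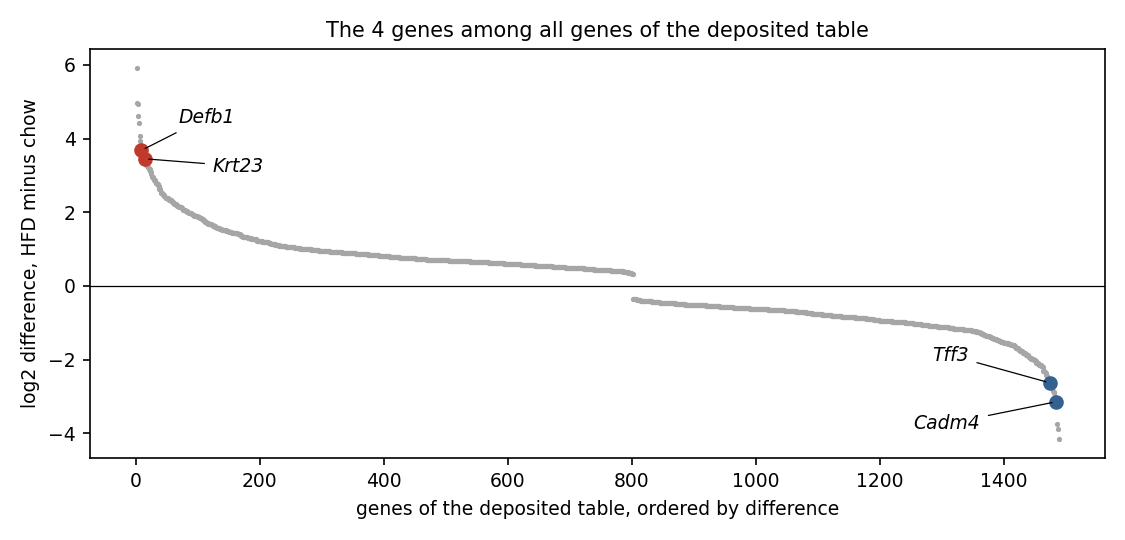
Log2 difference, HFD minus chow, of the 1488 genes of the deposited table in order of size, with the 4 genes marked. Red points are higher and blue points lower in HFD. The smallest absolute difference in the table is 0.33, and the 4 genes lie near its ends.

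The 4 genes also varied more between samples of 1 diet than most of the table. The SD within groups, pooled over both diets, was 0.65 for Krt23, 0.78 for Defb1, 0.70 for Tff3 and 0.65 for Cadm4, against a median of 0.19 over the 1488 genes. These SDs exceeded those of 95.9% to 97.8% of the table. The SD of Defb1 includes 4 chow values below 4.93, the highest HFD floor. That of Cadm4 includes an HFD value only 0.72 above the floor of its array. HFD replicate 3 was the HFD sample nearest to chow for all 4 genes, the higher and the lower ones alike. It was also the nearest for 64.2% of all table genes, so the 4 genes share this with most of the table. On the chow side, replicate 2 lay nearest to HFD for Krt23, Defb1 and Cadm4, and replicate 4 for Tff3. Chow replicate 2 was the nearest for 34.8% of table genes.

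Likeness of pattern was measured as the root mean square difference between mean-centred log2 values over the 7 samples, among 1127 other named genes of the table. Nearest to Krt23 were Flacc1 (0.41), Vldlr (0.48), the gene of the very low density lipoprotein receptor, and Mogat1 (0.50), which encodes a monoacylglycerol acyltransferase. Flacc1 had all 4 chow values below 4.93. Nearest to Defb1 were Egr2 (0.32), an early response transcription factor gene with 4 chow values below 4.93, Osbpl3 (0.39), of the oxysterol-binding protein family, and again Flacc1 (0.49). Nearest to Tff3 were Saa1 (0.21) and Saa2 (0.49), the genes of acute phase serum amyloid A proteins, and Derl3 (0.43), which encodes a protein of endoplasmic reticulum degradation. Saa1 had 15.59, 15.29 and 16.58 in HFD replicates 1, 2 and 3, against 19.09, 18.35, 18.17 and 17.56 in chow replicates 1 to 4, and both genes were highest in replicate 1 and lowest in replicate 4 of the chow group. Nearest to Cadm4 were Prtn3 (0.35), the gene of a neutrophil granule protease, Serpina9 (0.36), a serine protease inhibitor gene, and Fam222a (0.44). The last pair each had 1 HFD value below the floor of its array. The median over all these genes was 1.58 for Krt23, 1.73 for Defb1, 1.64 for Tff3 and 1.87 for Cadm4, and all genes compared are table genes, whose groups do not overlap.

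**Figure D3:**
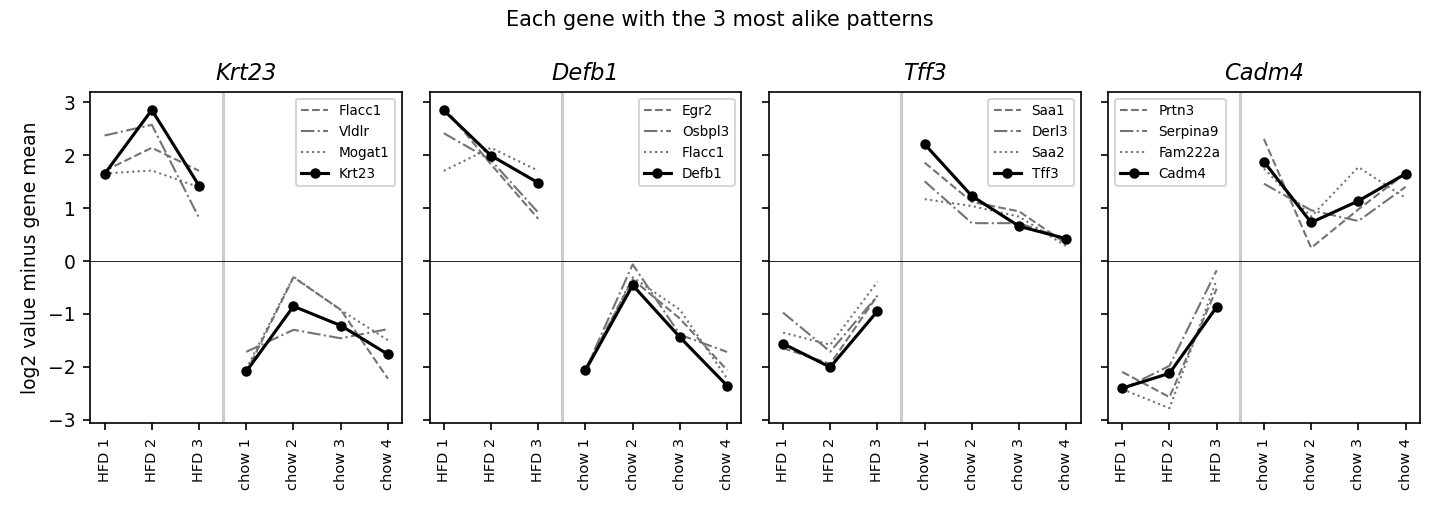
Log2 value minus the gene's mean over 7 samples, by sample, with HFD left and chow right of the grey line. Black points are the named gene and grey lines the 3 genes with the smallest root mean square difference from it. Tff3 and Saa1 lie closest together, at 0.21.

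The families and partners of the 4 genes came from 6 lists, of keratins, beta-defensins, trefoil factors, cell adhesion molecule and nectin genes, epithelial junction genes and mucosal defence genes. Besides the 4 genes, these lists had 147 genes on the array, of which 59 were well above background on all 3 HFD arrays. Of the 147, 8 were in the table (5.44%), against 4.59% of all array genes. In limma's linear model with Benjamini-Hochberg adjustment over all 32451 array genes, 1 of the 147 passed as higher in HFD and 1 as lower, at an adjusted p under 0.05. That is 1.36% of them, against 1.81% of all array genes, with 325 genes higher (1.0%) and 263 lower (0.810%). With columns centred on their medians the split of all genes was 187 higher and 614 lower, and after quantile normalization it was 285 higher and 520 lower. With the columns as deposited, the share of list genes that passed was thus near that of the array. Their median difference within the table was -0.60, against 0.44 over all table genes.

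Wfdc2, of the mucosal defence list, encodes a secreted protein with whey acidic protein domains and was the gene that passed as higher. It had 12.94, 12.36 and 11.90 in HFD replicates 1, 2 and 3, against 10.72, 10.10, 10.27 and 10.06 in chow replicates 1 to 4. The groups did not overlap, and the log2 difference was 2.11 (SE 0.27, limma adjusted p = 0.0253). The call was lost in 5 of 7 fits that left out 1 sample, those without HFD replicate 2 or without any 1 of the chow replicates 1, 2, 3 and 4, where the highest adjusted p was 0.116. With the mean of its 2 probes in the table, Wfdc2 had a log2 difference of 2.04 (limma adjusted p = 0.0252). Spdef, an epithelial transcription factor gene known from goblet cells, had 2.48, 4.58 and 4.70 in HFD replicates 1, 2 and 3, against 7.06, 6.31, 7.36 and 6.49 in chow replicates 1 to 4. It did not pass (log2 difference -2.88, SE 0.57, adjusted p = 0.0564 in limma), and 1 HFD value lay below its floor. Of the 17 mucosal defence genes, 8 were well above background on all 3 HFD arrays and 7, among them the goblet cell genes Agr2, Fcgbp and Clca1, on none.

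Of 27 junction genes, 4 were in the table (14.8%, against 4.59% of all array genes), each with a negative difference. A negative difference was held by 46.2% of all table genes. Marveld3, a tight junction membrane protein gene, passed as lower. It had 5.66, 5.90 and 5.61 in HFD replicates 1, 2 and 3, against 7.02, 6.73, 7.01 and 6.96 in chow replicates 1 to 4, and its log2 difference was -1.21 (SE 0.12, limma adjusted p = 0.0218). The call was lost in 4 of 7 fits, those without HFD replicate 2 or without any 1 of the chow replicates 1, 3 and 4, where the highest adjusted p was 0.0707. Its relatives in the same membrane protein family, Ocln (occludin) and Marveld2 (tricellulin), had log2 differences of -0.84 (SE 0.17) and -0.62 (SE 0.14), and Esrp2, an epithelial splicing regulator gene, had -0.57 (SE 0.11). These 3 did not pass, with adjusted p of 0.0571, 0.0798 and 0.0526 in limma. Marveld3 and Ocln each had 2 probes in the table. With the mean of all probes, Ocln passed as lower (log2 difference -0.76, limma adjusted p = 0.0338) and Marveld3 had -1.64. Under the table's own variance prior Ocln, Esrp2 and Spdef passed as lower (limma adjusted p = 0.0407, 0.0384 and 0.0385). Under column centring and under quantile normalization Ocln, Marveld2, Esrp2 and Spdef also passed as lower. Thus 5 of the 147 genes (3.4%) passed as lower under each of these 2 scalings. The share of all array genes that passed as lower was 1.89% under centring and 1.60% under quantile normalization. Of the 27 junction genes, 26 were well above background on all 3 HFD arrays and Cldn4, a claudin gene, on none.

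In the families themselves few genes were listed. Krt222 was the other keratin in the table, of 52 on the array besides Krt23. Its log2 difference of 0.85 (SE 0.17) did not pass (limma adjusted p = 0.0592), but passed under the table's own variance prior (limma adjusted p = 0.0419). The keratins of hepatocytes and of bile ducts, Krt8, Krt18, Krt7 and Krt19, were well above background on all 3 HFD arrays and were not in the table. Of 41 other beta-defensins none was in the table, and 30 were not well above background on any HFD array. Defb11 was the other beta-defensin well above background on all 3. Of the other trefoil factors, 2 of 3 HFD arrays showed Tff2 and 1 showed Tff1 well above background, and neither gene was in the table. Cadm3, a nectin-like adhesion gene, had a log2 difference of 0.41 (SE 0.10) that did not pass (limma adjusted p = 0.0867), opposite in sign to Cadm4. Cadm1 and the nectin genes Nectin1, Nectin2 and Nectin3 were well above background on all 3 HFD arrays and not in the table, and Cadm2 and Nectin4 were well above background on none of them.

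**Figure D4:**
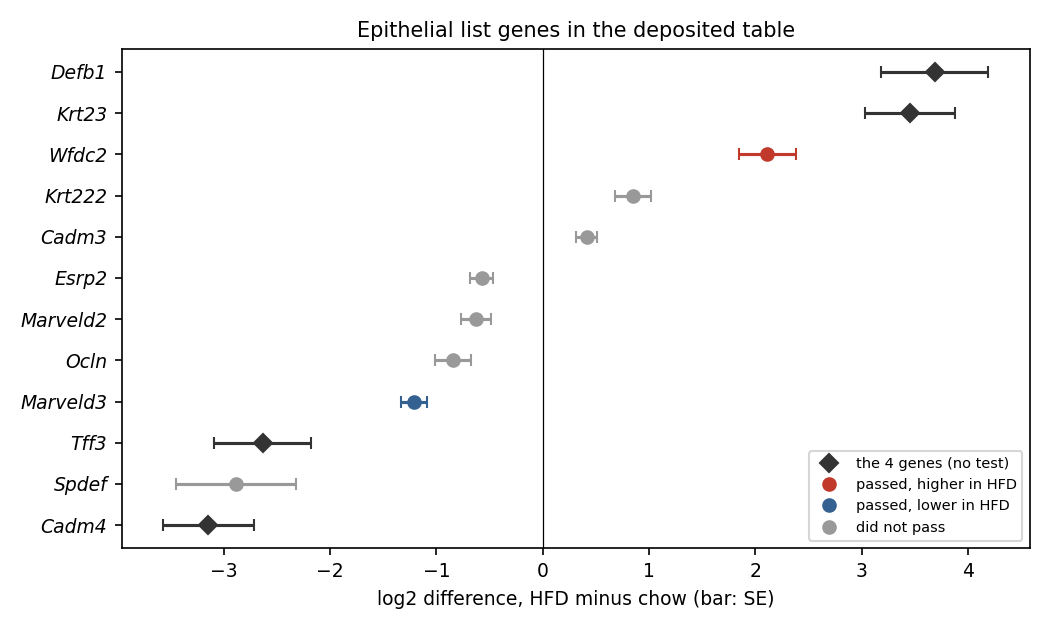
Log2 difference, HFD minus chow, with its SE for the 12 genes of the 6 lists that are in the deposited table. Black diamonds are the 4 genes, red and blue points passed as higher and lower in HFD, and grey points did not pass. The 4 junction genes lie between -1.21 and -0.57.

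The HFD arrays, whose scanner files match the table, gave the signals behind these values. Krt23 had a processed signal, the background-subtracted spot intensity, of 2538, 4588 and 1941 in HFD replicates 1, 2 and 3, brighter on average than 85.6% of probes on the same array (SD 3.77, n = 3). The brightness of a spot depends on its probe as well as on its RNA, so these places are of spots and not of transcript amounts. Defb1 had signals of 327, 138 and 108 and lay above 59.7% of probes (SD 4.79, n = 3). Tff3 had signals of 305, 171 and 384 and lay above 64.6% of probes (SD 3.59, n = 3). Cadm4 had signals of 62.1, 57.6 and 150.1 and lay above 52.3% of probes (SD 5.73, n = 3). All 12 of these spots were well above background, and the raw Cadm4 spot in HFD replicate 2 was 2.33 times its local background, against 5.07 in replicate 1 and 7.0 in replicate 3.

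Markers of bile duct cells and of hepatocytes differed among the HFD arrays. Of 16 cholangiocyte markers, 14 were highest in HFD replicate 1 and 12 lowest in HFD replicate 3, and 11 had the order of Defb1, replicate 1 above 2 above 3. Their summed signal was 15.5, 9.52 and 6.09 in HFD replicates 1, 2 and 3. Spp1, the osteopontin gene, made up 8.38, 3.73 and 2.05 of those sums. Of 17606 genes well above background on all 3 HFD arrays, 30.4% were highest in HFD replicate 1, 29.1% lowest in HFD replicate 3, and 18.2% had the order of Defb1. All 15 hepatocyte markers were lowest in HFD replicate 1, and their summed signal was 4572, 6750 and 6419 in HFD replicates 1, 2 and 3. Wfdc2 had the order of Defb1 as well, while Krt23 was highest in HFD replicate 2. HFD replicate 1 also had the highest mean negative control signal, 46.9 against 29.9 and 30.8 on the other HFD arrays. Of 9 intestine markers 7 were highest there too, but 5 of the 9 were not well above background on any HFD array. Fabp2 and Lgr5, the 2 well above background on all 3 HFD arrays, were lowest in HFD replicate 1 and highest in HFD replicate 3. Of the 16 cholangiocyte markers, 1 was in the table, Sctr, the secretin receptor gene, with a log2 difference of 1.21 (SE 0.26) that did not pass (limma adjusted p = 0.0708). Cldn4 was the cholangiocyte marker not well above background on any HFD array. The summed level of the cholangiocyte markers in the chow columns could not be had, and the part of bile duct cells or hepatocytes in the values of Defb1 and Krt23 was not tested.

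The other marker lists bear on RNA from neighbouring tissue. Of 9 intestine markers, 5 were not well above background on any HFD array, and 1, Fabp2, a fatty acid binding protein gene, was in the table, where it passed as higher (log2 difference 1.86, SE 0.16, limma adjusted p = 0.0182). That call was lost without HFD replicate 2 and without chow replicate 1, 3 or 4, where the highest adjusted p in limma was 0.0660. The summed intestine markers on HFD arrays, 89.6 to 105.01, were nearly all Fabp2 (88.7 to 104.03). Of 10 pancreas markers and 8 adipose markers none was in the table. Well above background on all 3 HFD arrays were 4 and 4 of them, and 5 and 2 were on none. In HFD replicates 1, 2 and 3 the summed pancreas markers were 1.03, 0.71 and 0.67 and the summed adipose markers 6.17, 14.95 and 9.95. Cela1 made up 0.48, 0.17 and 0.10 of the pancreas sums. Of the adipose sums, Cfd made up 0.80, 9.67 and 5.96, and Fabp4, in another order, 5.02, 4.82 and 3.64. Of the 15 hepatocyte markers, Cps1 had a log2 difference of -1.36 (SE 0.26) that did not pass (limma adjusted p = 0.0531). Cps1 passed as lower under column centring, quantile normalization and the table's own variance prior, with limma adjusted p of 0.0382, 0.0329 and 0.0367. Serpina1a had -0.52 (SE 0.09) and passed as lower (limma adjusted p = 0.0457), but it did not pass without any 1 of the 7 samples (highest limma adjusted p = 0.235), and under quantile normalization its difference was 0.15 and did not pass. Their part in the values of the 4 genes was not tested.

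The scanner files labelled chow gave other values for the 4 genes than the chow columns of the table. Krt23 had signals of 1941 to 4588 on HFD arrays and 423 to 675 in the files labelled chow, and Cadm4 had 57.6 to 150.1 on HFD arrays and 1187 to 1787 in those files. After division by each array's 75th percentile, the log2 differences were 3.45 (SE 0.34) for Krt23 and -3.09 (SE 0.38) for Cadm4. Defb1 had 108 to 327 on HFD arrays and 295 to 557 in the files labelled chow, a log2 difference of -0.36 (SE 0.34) after scaling, and was well above background on all 4 of those arrays. Tff3 had 171 to 384 on HFD arrays and 4.84 to 6.10 in the files labelled chow, where it was not well above background on any array. Defb1 and Tff3 thus had the opposite sign to the table, and Krt23 and Cadm4 the same sign. In this comparison 16762 of 20889 genes (80.2%) passed in limma in one direction or the other, so nothing is read from it about diet.

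**Figure D5:**
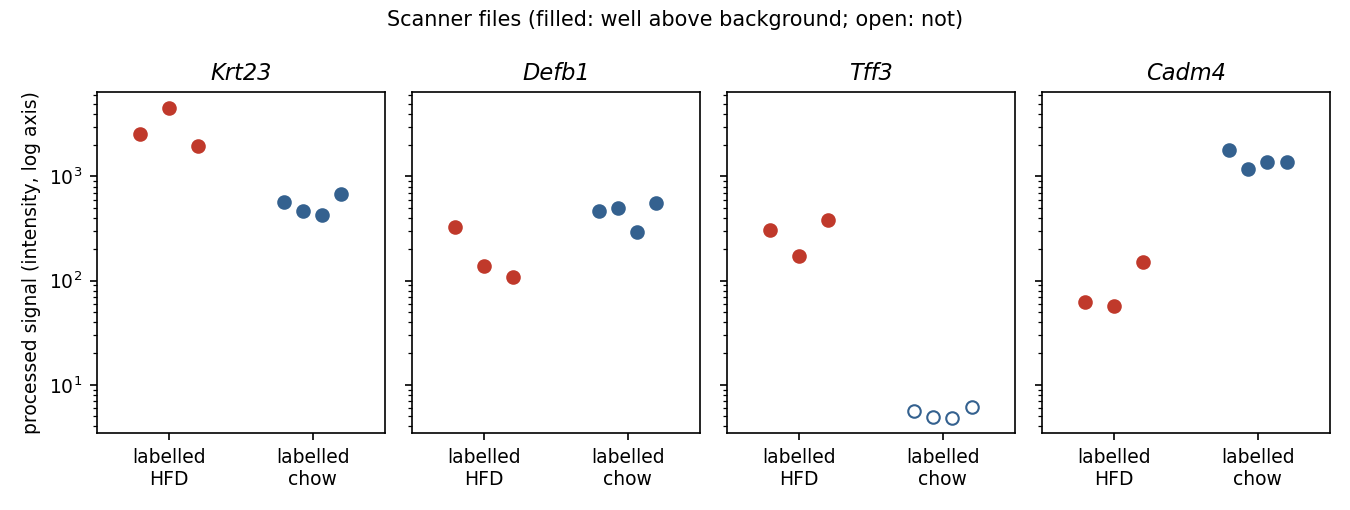
Processed signal of the 4 genes, on a log axis, in the 3 scanner files labelled HFD (red, left) and the 4 labelled chow (blue, right). Filled points were well above background, and open points were not. The Tff3 points of the files labelled chow lie between 4.84 and 6.10, while Defb1 was well above background in all 7 files.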

How the data were processed

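Mouse liver RNA (0.5 microgram) was labelled with Cy3 and hybridised to 1 Agilent array per sample, per the labels' protocols, for 3 HFD and 4 chow samples, grouped by title. The deposited scanner files hold intensity values: a processed signal that is background-subtracted per the file headers, the raw signal, the local background and a call of well above background. Feature Extraction was version 10.7.3.1 per the file headers and 9.1 per the submitters' processing notes. The log2 values come from the authors' table of selected probes. How it was normalized and selected is not given in the sources used here. The HFD scanner files set the direction and log2 scale of its HFD columns, and nothing set the scale of its chow columns. Column medians were 9.68 to 9.85 in HFD and 9.55 to 9.56 in chow.

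Of 39429 probes, 27234 were named through RefSeq accessions (GRCm38.p6, names only), and 2 of the 4 genes matched in the promoter table. Control spots and outlier spots were left out, and the probe with the highest mean stood for a gene. The table was fitted with limma (3.58.1, R 4.3.3), 2 groups and no covariate. Variances were moderated to a prior (0.0363, 2.14 degrees of freedom) taken over 19486 genes that at least 2 HFD arrays measured well above background, and p-values were adjusted over 32451 genes, those outside the table at a p of 1. The fit was tested on simulated data. Named genes were the 4 genes, list members in the table (up to 6 per list, and otherwise up to 4 by HFD signal), the 3 most alike genes and the neighbours in order of difference. The members and lists were chosen with earlier results of these data known. Alternatives covered scaling, probe choice, floors, the variance prior, the adjustment, the replicate number, the scanner files labelled chow and each sample left out.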

Additional observations from a re-analysis of the deposited data

Results flagged for a closer look

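Of 31 sets of 4 chow values examined, 3 held a sample far from the others, where chance gives about 1 in 20. Serpina1a had a table value of 18.38 in chow replicate 2 and 18.47 in each of the other chow samples. In the scanner files labelled chow, Defb1 had a log2 signal minus the 75th percentile of -2.40 in replicate 3, against -1.77 to -1.66 in the others. Tff3 had -8.03 in replicate 1 of those files, against -8.32 to -8.28, and was not well above background in any of them.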

How the results depend on the processing

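Of 52 recomputed differences of the 4 genes, 49 moved by less than the spread between replicates. Some of them could not move, so this count is no measure of robustness. Each gene has 1 probe, so averaging probes changed nothing, and raising values to the floor left Krt23, Tff3 and Cadm4 as they were. The replicate block gave the same differences as the fit without chow replicate 4. With 1 sample left out the difference of Krt23 ran from 3.01 to 3.73 and that of Defb1 from 3.31 to 4.06. That of Tff3 ran from -2.91 to -2.27 and that of Cadm4 from -3.61 to -2.84. With values raised to the floor Defb1 had 2.38. With the scanner files labelled chow in place of the chow columns Defb1 had -0.36 and Tff3 6.69, which is the mismatch of files described above. In that comparison 8367 genes were higher and 8395 lower, together 80.2% of 20889. The 6 lists held 29 and 34 of these, with the 4 genes counted as list members. Calls across genes moved far more. Below, list genes are the 147 genes of the lists besides the 4 genes, which were chosen on this contrast. With the columns as deposited, 1 list gene was higher and 1 lower. Centred columns gave 187 higher and 614 lower genes (1.89% lower), and 5 lower list genes (3.4%). Quantile normalization gave 285 and 520 (1.60% lower), and 5 lower list genes (3.4%). Leaving out genes with any value below the floor gave 182 higher and 185 lower. The table's own variance prior gave 552 and 474, with 2 higher and 4 lower list genes. Adjustment over the table alone gave 801 and 687, with 3 higher and 5 lower list genes. With the 4 genes counted as list members, that prior gave 4 higher and 6 lower, and that adjustment 5 higher and 7 lower. With 1 sample left out the counts ran from 0 to 372 higher and from 0 to 341 lower. Those of list genes ran from 0 to 1 and from 0 to 3. Without chow replicate 1 there were 0 higher and 0 lower genes. Leaving out chow replicate 4 gave 2 and 1, chow replicate 3 gave 4 and 7, and HFD replicate 2 gave 5 and 4. Leaving out chow replicate 2 gave 48 and 51, and HFD replicate 1 gave 112 and 120, all with fewer samples. Deviations of same-numbered samples from their group means had correlations of -0.10, 0.14 and 0.03 for replicates 1, 2 and 3. These cannot decide whether the numbers pair samples, since the labels do not say what the numbers stand for. With the replicate number as a block, limma called 0 genes higher and 0 lower, list genes included (0 and 0), with 2 residual degrees of freedom. At an unadjusted p under 0.05 that fit and the fit without chow replicate 1 both had 801 and 687 genes, all of the table. The cause of these zeros was not tested. Ranked among probes well above background alone, the spots lay above 76.4% (Krt23), 34.3% (Defb1), 41.6% (Tff3) and 21.2% (Cadm4) of probes on HFD arrays. With 1 HFD array left out they lay above 83.5% to 87.03%, 57.2% to 61.9%, 62.7% to 66.3% and 49.1% to 54.5% of all probes. Signal over background limits Cadm4 in HFD. For Defb1 in chow the limit was taken from the HFD floors, as the floor behind the chow columns is not known here.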
